A study of Mus musculus with 7 samples.

Results

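Broad H3K27me3 domains are long stretches of chromatin carrying trimethylated lysine 27 of histone H3, here mapped by ChIP-seq in globose basal cells from the olfactory epithelium of mice. Domains were taken from chromosomes 1 to 19: bases under a peak in both H3K27me3 libraries were kept, pieces separated by at most 3 kb were joined, and joined regions spanning at least 10 kb were counted as domains. The rule gave 1697 domains among 25538 joined regions, so that domains were 6.64% of the regions and the other 23841 regions were shorter than 10 kb. Domains together spanned 35.8 Mb, or 1.47% of the 2442 Mb of these chromosomes, and held 22.8 Mb of the 50.01 Mb of H3K27me3 shared by both libraries (45.5%). Because the H3K27me3 peaks chose the domains, their number, span and enrichment are descriptions with no test.

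The series holds H3K27me3 libraries (replicates 1 and 2), H3K27ac libraries (replicates 1 and 2) and 3 input libraries, which were not analysed here. All cells were from adult wild-type mice given methimazole, which destroys most cells of this epithelium, and were collected 7 to 10 days later. Each replicate was a pool of cells from 3 mice, enriched with magnetic beads through an antibody to c-Kit, so every group shares the lesion, the genotype and the selection, and there was no uninjured group. The labels do not say that replicates of a mark came from different mice, but each is described as its own pool, and with 2 libraries of each mark no test over samples could be made.

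H3K27me3 is written by Polycomb Repressive Complex 2 and is found over genes kept silent, in mammals above all over CpG-rich starts of developmental regulators, where it can spread into domains far longer than a gene start. H3K27ac sits on the same lysine and marks active promoters and enhancers, so one histone tail cannot carry both. Globose basal cells are the dividing progenitors that rebuild olfactory neurons and supporting cells, and Polycomb marks are known in stem and progenitor cells for covering the regulators of lineages not being used.

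The promoters of 5 genes in domains are shown because they differ in the marks that lie over them. Sequences are RefSeq's (GRCm38.p6), from 250 bases before to 50 bases after the gene start, written 5′ to 3′ on the gene's strand, with each CG dinucleotide in capitals. Hoxd10 (chr2:74691641-74691940, plus strand) is a body-axis patterning gene, Nkx2-5 (chr17:26841516-26841815, minus strand) a heart regulator, and Gm26878 (chr8:120879753-120880052, plus strand) an RNA gene in the longest domain that held no protein-coding gene. Lhx2 (chr2:38351058-38351357, plus strand) is a regulator of olfactory neuron development, and Dmrta2 (chr4:109977775-109978074, plus strand) is a transcription factor gene of the developing forebrain.
Hoxd10: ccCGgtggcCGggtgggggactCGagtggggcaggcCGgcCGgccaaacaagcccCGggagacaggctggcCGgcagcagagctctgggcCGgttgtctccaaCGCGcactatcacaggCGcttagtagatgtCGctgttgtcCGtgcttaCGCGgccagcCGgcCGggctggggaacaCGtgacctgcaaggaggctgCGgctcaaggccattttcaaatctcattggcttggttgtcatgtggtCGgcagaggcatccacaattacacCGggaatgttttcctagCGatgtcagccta
Nkx2-5: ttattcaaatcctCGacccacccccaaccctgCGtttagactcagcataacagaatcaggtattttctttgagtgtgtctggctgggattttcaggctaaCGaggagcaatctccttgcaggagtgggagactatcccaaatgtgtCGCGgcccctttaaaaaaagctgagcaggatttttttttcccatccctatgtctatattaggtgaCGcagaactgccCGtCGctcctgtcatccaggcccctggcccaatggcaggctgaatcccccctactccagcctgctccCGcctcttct
Gm26878: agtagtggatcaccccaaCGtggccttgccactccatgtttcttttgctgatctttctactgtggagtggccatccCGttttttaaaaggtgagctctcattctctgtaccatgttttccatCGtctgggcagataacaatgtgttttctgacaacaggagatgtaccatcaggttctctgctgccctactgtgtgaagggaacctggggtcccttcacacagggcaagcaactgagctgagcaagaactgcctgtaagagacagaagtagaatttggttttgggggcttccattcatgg
Lhx2: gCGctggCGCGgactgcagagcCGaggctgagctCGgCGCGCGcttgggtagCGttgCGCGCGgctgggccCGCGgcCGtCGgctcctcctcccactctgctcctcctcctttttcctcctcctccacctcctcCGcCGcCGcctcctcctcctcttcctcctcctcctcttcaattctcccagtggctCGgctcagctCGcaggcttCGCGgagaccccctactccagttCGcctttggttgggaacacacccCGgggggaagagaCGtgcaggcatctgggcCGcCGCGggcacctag
Dmrta2: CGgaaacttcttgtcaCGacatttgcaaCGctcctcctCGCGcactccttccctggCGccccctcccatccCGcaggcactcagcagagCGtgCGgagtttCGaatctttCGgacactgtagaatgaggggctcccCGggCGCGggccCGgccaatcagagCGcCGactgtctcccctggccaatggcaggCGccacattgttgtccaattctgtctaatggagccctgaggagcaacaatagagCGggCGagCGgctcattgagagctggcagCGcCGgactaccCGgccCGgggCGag

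All 5 windows lay wholly under H3K27me3 peaks of both libraries. The authors' fold enrichment of the peak there was 12.5 and 8.97 at Hoxd10 in H3K27me3 replicates 1 and 2, 11.9 and 7.89 at Nkx2-5, and 7.08 and 5.05 at Gm26878. None of these 3 windows had an H3K27ac peak in either library. Lhx2 had H3K27me3 at 8.67 and 4.94 and H3K27ac over the same 300 bases at 13.8 and 10.2 in replicates 1 and 2. Dmrta2 had H3K27me3 at 7.32 and 5.08 and H3K27ac at 10.5 and 8.43. The windows held 22 CG at Hoxd10, 9 at Nkx2-5, 3 at Gm26878, 29 at Lhx2 and 26 at Dmrta2.

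Of the 1136 annotated miRNA genes, 68 lay in or across a domain (5.99%), and a mature sequence was found for 58 of them. The mature forms below are those of some of the miRNA families with more than 1 member in domains, with the miR-96 and miR-183 cluster, grouped by seed (bases 2 to 8, in capitals). miR-9 is a neural miRNA encoded in 3 copies, of which Mir9-1 and Mir9-3 were in domains and share 1 mature sequence. miR-10 and miR-196 are encoded inside the Hox clusters. miR-7 has 3 copies, of which Mir7-2 and Mir7b were in domains. miR-96 and miR-183 are made from 1 cluster known from hair cells and other sensory cells. Within each of the families miR-10, miR-196 and miR-7 the printed forms share their seed, while miR-96 and miR-183 have different ones. The genes in domains are Mir9-1 (chr3:88215598-88215686), Mir9-3 (chr7:79505264-79505353), Mir10a (chr11:96317165-96317274), Mir10b (chr2:74726070-74726137), Mir196a-1 (chr11:96265164-96265265), Mir196a-2 (chr15:102973350-102973434), Mir196b (chr6:52230081-52230165), Mir7-2 (chr7:78888277-78888373), Mir7b (chr17:56242988-56243098), Mir96 (chr6:30169446-30169551) and Mir183 (chr6:30169668-30169737), in GRCm38.p6.
miR-9-5p: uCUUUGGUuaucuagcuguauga
miR-10a-5p: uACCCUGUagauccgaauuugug
miR-10b-5p: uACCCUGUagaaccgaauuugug
miR-196a-5p: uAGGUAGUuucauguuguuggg
miR-196b-5p: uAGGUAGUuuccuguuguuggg
miR-7a-5p: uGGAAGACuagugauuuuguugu
miR-7b-5p: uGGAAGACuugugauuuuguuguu
miR-96-5p: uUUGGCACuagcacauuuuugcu
miR-183-5p: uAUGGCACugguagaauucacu

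The cell type label was set against peaks over marker genes. All 8 globose basal cell markers looked at had H3K27ac in both libraries within 1 kb of the gene, among them Kit, which encodes the selected receptor, with a fold of 6.80 and 5.46 in replicates 1 and 2. These counts are read against 68.2% of all 20665 protein-coding genes, which had shared H3K27ac in the gene or within 1 kb of it. It was also present at 3 of 4 horizontal basal cell markers, 3 of 3 immature neuron, 3 of 3 mature neuron and 3 of 3 sustentacular cell markers, 1 of 3 mast cell, 2 of 4 melanocyte and 2 of 3 leukocyte markers. Shared H3K27me3 lay in or within 1 kb of 7 of the 8 globose basal cell markers, at 6.86 and 6.89 at Kit. For H3K27me3 the other counts were 3 of 4 horizontal basal cell, 2 of 3 immature neuron, 1 of 3 mature neuron and 1 of 3 sustentacular cell markers. They were 1 of 3 mast cell, 1 of 4 melanocyte and 1 of 3 leukocyte markers. The matching H3K27me3 share of all genes was not counted. The selection keeps any mast cell or melanocyte that bears c-Kit. Of the mast cell genes, Cpa3 had no peak of either mark in any library and Tpsb2 no H3K27ac peak, while Hdc had H3K27ac at 6.11 and 5.08. Of the melanocyte genes, Pmel had H3K27ac at 13.8 and 12.1 and Mitf at 6.61 and 4.02. Tyr had no H3K27ac peak, and Dct had one in replicate 2 only, at 2.89. H3K27ac at marker genes thus did not set the labelled cell apart from other olfactory cells, and the part of other cells in the domains was not tested. In pooled cells, 2 marks on the same bases can come from different cells, from different alleles or from neighbouring nucleosomes, and these cannot be told apart here.

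Most domains were close to the minimum span. The median span was 16.1 kb, the middle 50% of domains lay between 12.4 and 23.1 kb, and the longest domain spanned 182.2 kb. There were 742 domains of 10 to 15 kb (43.7%), 386 of 15 to 20 kb, 485 of 20 to 50 kb and 77 of 50 to 100 kb, and 7 reached 100 kb. At the minimum itself, the shortest domains spanned 10.01 kb in Hydin, a gene of motile cilia, and 10.02 kb in Sorcs2, a neuronal sorting receptor. The longest regions left out spanned 9.994 kb at Cspg4, a proteoglycan gene, and 9.988 kb at Ppp1r1b, which encodes a phosphatase inhibitor of dopamine-responsive neurons. The number rests on both libraries together: H3K27me3 replicate 2 alone gave 2733 domains and replicate 1 alone gave 3356, against 1697 from bases shared by both.

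Domains were not solid blocks of peaks. Bases shared by both libraries covered 63.5% of the total domain span, and the median domain was 61.7% covered (quartiles 48.7% and 72.8%, range 17.6% to 100%). Coverage of at least 90% was seen in 59 domains, and 461 domains were covered over less than 50% of their span. A median domain was made of 5 shared segments, its largest gap was 2.38 kb at the median, and 20 domains were 1 unbroken segment. Replicate 1 covered a median 71.3% of a domain and replicate 2 a median 77.4%, and replicate 2 covered more than replicate 1 in 1125 domains. Longer domains were slightly more fully covered, with a Spearman correlation of 0.195 across the 1697 domains, which share the same 2 libraries.

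The extremes of coverage among domains of at least 20 kb show how different they could look. The 32.6 kb domain over Celf5, which encodes a neuronal RNA-binding protein, the 29.1 kb domain at Erfl and the 20.9 kb domain in Grm4, a metabotropic glutamate receptor gene, were covered over 100% of their span in both libraries. A 20.4 kb domain 16.1 kb from Barhl2 and a 20.9 kb domain in Otof, a gene needed for hearing, were covered over 21.0% and 22.4% by both libraries. In the Otof domain replicate 1 alone covered 44.2% and replicate 2 alone 41.7%, so most of the bases covered in either library there were not shared.

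**Figure D1:**
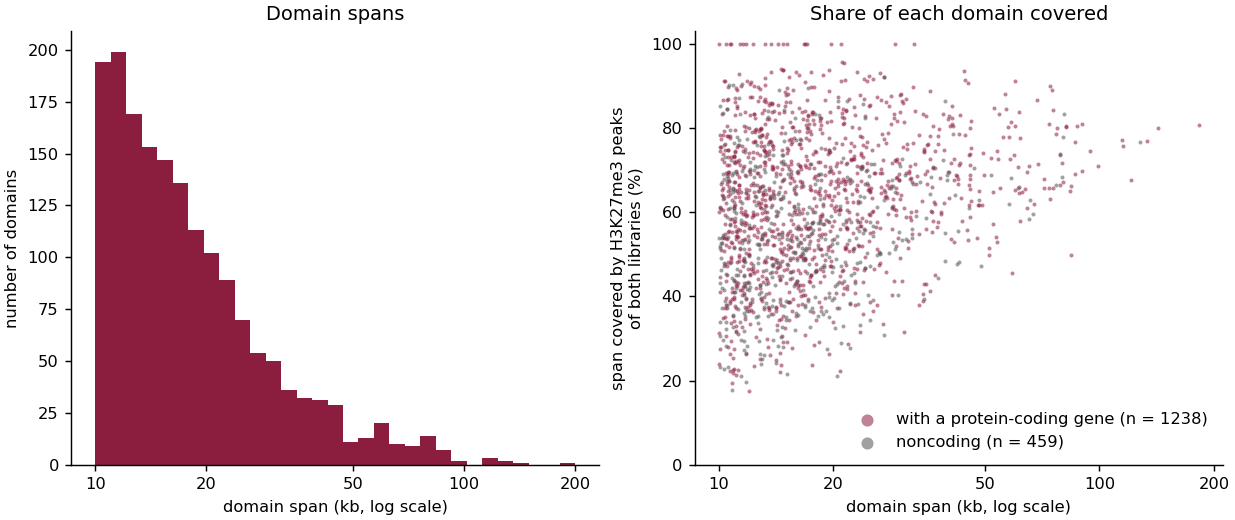
Left, number of domains by span in kb on a log axis; right, each domain's span in kb on a log axis against the percent of that span under H3K27me3 peaks of both libraries, with domains overlapping a protein-coding gene in red (n = 1238) and noncoding domains in grey (n = 459). Spans run from 10.01 to 182.2 kb and crowd near the minimum, and coverage spreads widely at short spans.

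The lengths and folds of the peaks in domains are given as a description, since the span rule used the same peaks. The longest peak of a domain had a median length of 6.23 kb in replicate 1 and 7.89 kb in replicate 2. The highest fold in a domain had a median of 5.86 in replicate 1 and 4.44 in replicate 2. A −log10 q of at least 5 was reached in 60.8% and 27.3% of domains in replicates 1 and 2. Replicate 1 had the higher top fold in 1632 of the 1697 domains, and the order of domains by top fold was alike in both (Spearman correlation 0.865 across domains, a description). These folds are values the authors gave each peak. Apart from the count of 1632 domains and the correlation, they were compared within a library only.

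The longest domain, chr13:54833906-55016138 (182.2 kb), covered all of Unc5a, a netrin receptor gene of axon guidance, and reached into Hk3, which encodes a hexokinase. H3K27me3 covered 83.2% of it in replicate 1 and 92.6% in replicate 2, with a top fold of 8.58 and 5.46. The next, chr2:165133107-165275796 (142.7 kb), lay over part of Cdh22, a cadherin gene expressed in brain, with 85.7% and 90.5% covered and a top fold of 7.25 and 5.41. The 120.9 kb domain at Pax2, a regulator of kidney and inner ear, had the higher top fold of 13.2 and 7.64. Domains of 115.2 kb at Ttc34, 114.3 kb at the kainate receptor gene Grik3 and 90.3 kb at the adrenergic receptor gene Adra2c followed the same pattern of long cover with few or no H3K27ac peaks. H3K27ac of both libraries covered 0.396% of the Unc5a domain, 0.570% of the Cdh22 domain, 0.262% of the Pax2 domain and none of the other 3.

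Long domains often stood beside each other. On chromosome 8, a noncoding domain of 128.1 kb was followed after 3.25 kb by a noncoding domain of 80.0 kb and after a further 4.61 kb by an 89.8 kb domain that held Foxf1, a regulator of lung and gut mesenchyme, and the neighbouring RNA gene Fendrr. After 11.9 kb came a 98.9 kb domain that held Foxc2, a regulator of lymphatic vessels, and Foxl1. At Grik3 there were 4 domains of 114.3, 52.8, 32.9 and 71.6 kb, and a noncoding domain of 79.7 kb ended 4.01 kb before the Pax2 domain. Several of these gaps were just over the 3 kb that were joined, so the number and span of such neighbours follow the joining distance.

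**Figure D2:**
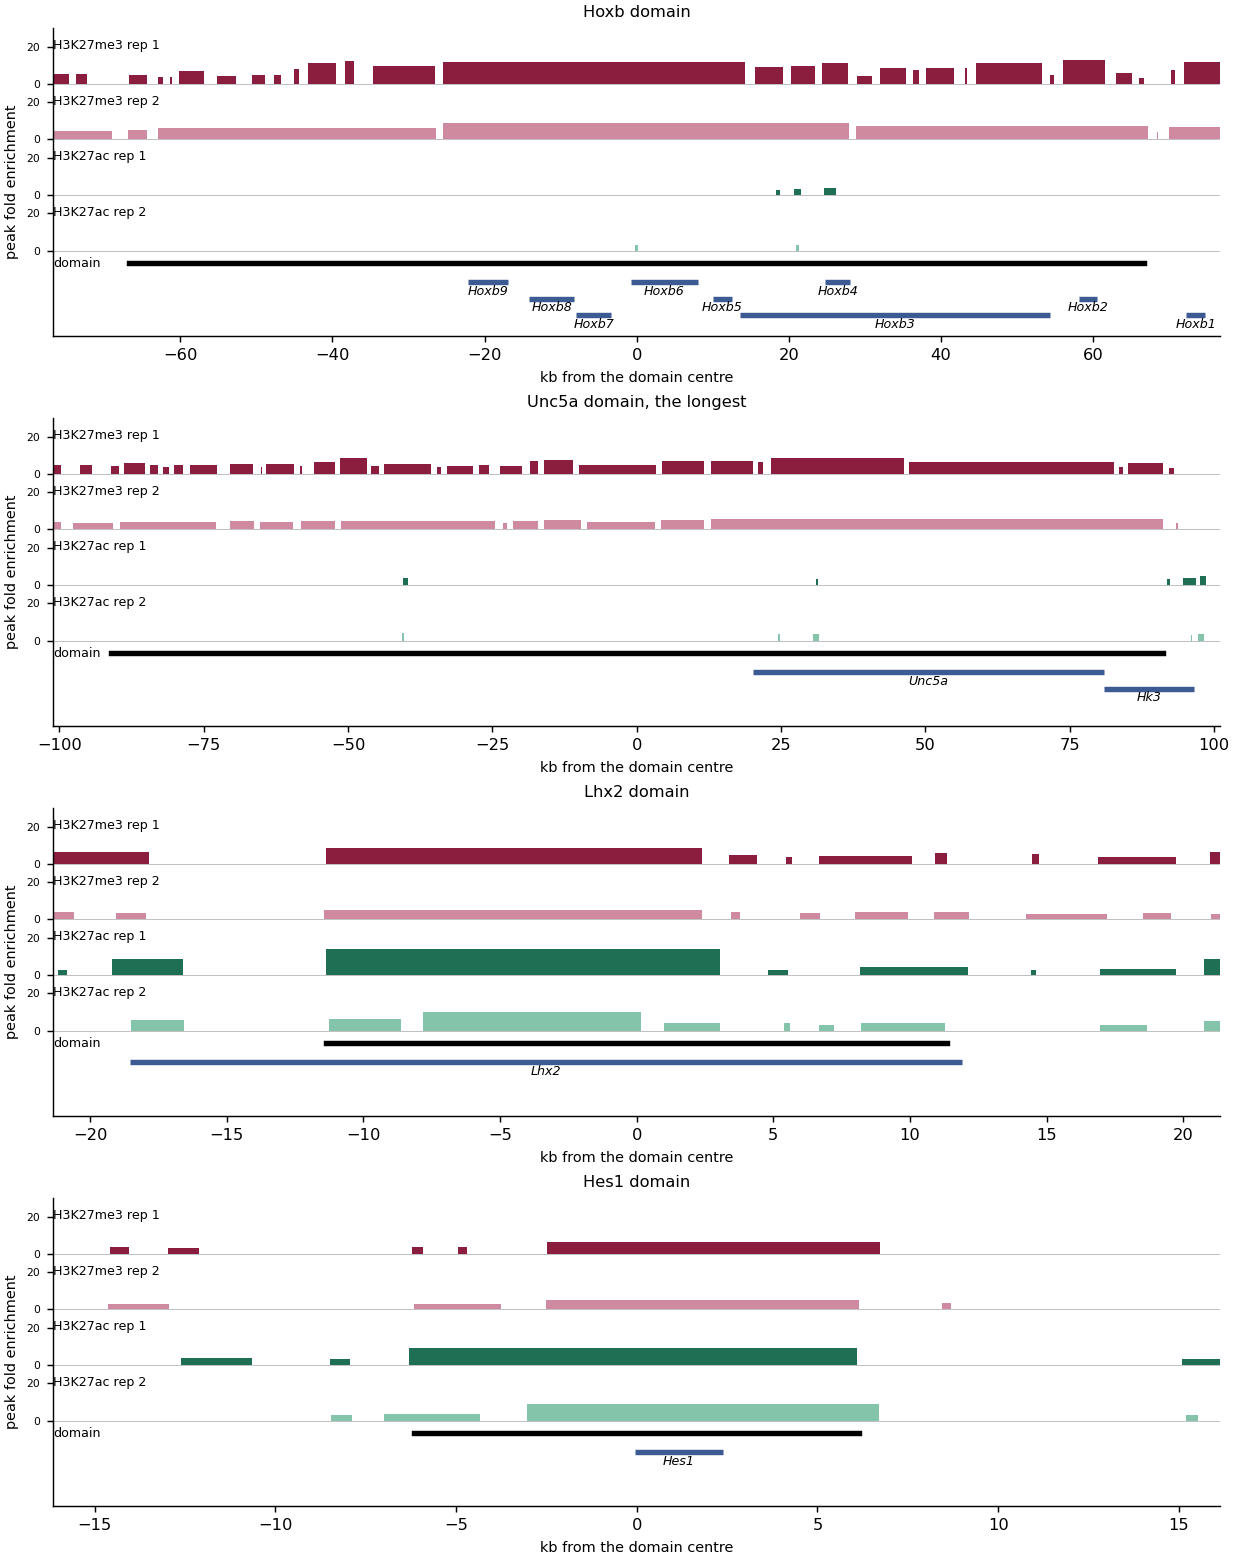
Peaks of each library over 4 domains, with position in kb from the domain centre on the x axis and the authors' fold enrichment of each peak as the height of its block (scale 0 to 20 in each row). Black bars are the domains and blue bars the protein-coding genes. H3K27me3 peaks cover 76.8% and 97.5% of the Hoxb domain and 83.2% and 92.6% of the Unc5a domain in replicates 1 and 2, with a few small H3K27ac peaks, while H3K27ac blocks cover most of the Lhx2 and Hes1 domains in both libraries.

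Domains touched 1267 of the 20665 protein-coding genes (6.13%), held 415 of them whole (2.01%), and held the start of 703 of the 16457 genes with a start in the RefSeq promoter table (4.27%). Without H3K27me3 replicate 2, 813 genes lay wholly inside a domain, against 415 with both libraries. By position, 335 domains held at least 1 whole gene, 544 covered an end of a gene without holding one, 359 lay within a gene body and 459 touched no protein-coding gene. Domains with a whole gene had the highest median top fold, 8.85 and 5.74 in replicates 1 and 2, and the fullest cover, with a median of 70.2%. Domains at a gene end had 6.84 and 4.85, and domains within a gene body had 4.70 and 3.93, close to the 4.96 and 4.03 of noncoding domains. Domains with a whole gene were also longer, with a median span of 20.6 kb against 14.75 to 15.7 kb in the other classes. The median top fold was higher in longer domains, from 5.30 and 4.17 at 10 to 15 kb to 7.73 and 5.19 at 50 kb and over. The part of span in the contrast was not tested. Most genic domains met 1 protein-coding gene (994 domains), and 244 met at least 2.

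Gene lists are given by how many of their members overlapped a domain, read against the 6.13% of all protein-coding genes. No test was made, since members of a family can share a domain and genes are not replicates. Transcription factors of development stood far above that share: 38 of 39 Hox genes (97.4%), 93 of 120 other homeobox genes (77.5%), 5 of 5 Gata genes, 10 of 16 T-box genes (62.5%), 19 of 41 Fox genes (46.3%), 17 of 46 tissue-specific bHLH genes (37.0%) and 6 of 18 Sox genes (33.3%). Each library alone gives more and longer domains, so its counts can only equal or exceed these. With domains rebuilt from H3K27me3 replicate 2 alone, the counts were 39 of 39 Hox and 104 of 120 other homeobox genes against 9.10% of all genes, and from replicate 1 alone 38 of 39 and 97 of 120 against 11.9%. Counting only peaks whose −log10 q reached 2, 38 of 39 Hox and 86 of 120 other homeobox genes overlapped a domain, against 3.55% of all genes.

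**Figure D3:**
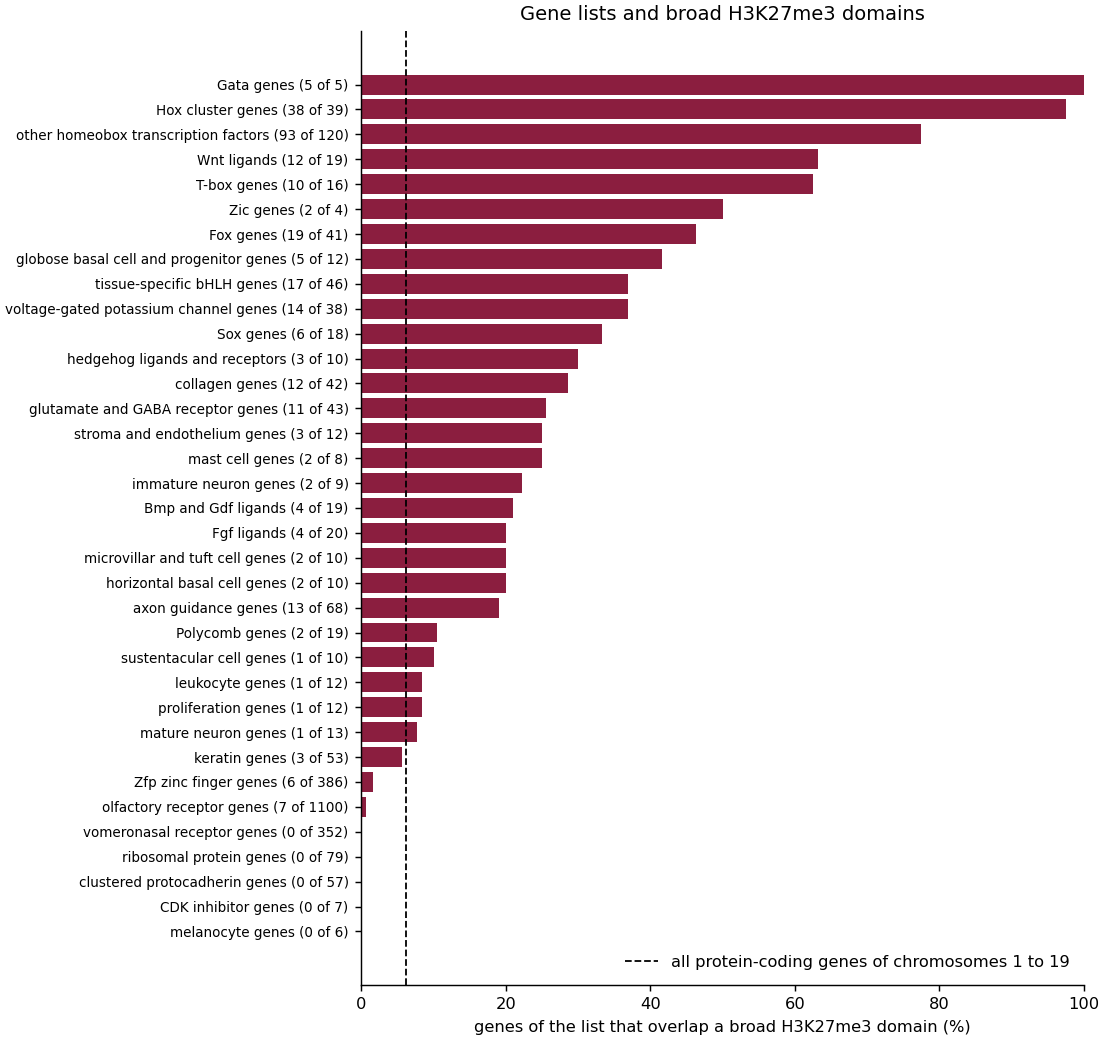
Percent of the genes of each list that overlap a broad H3K27me3 domain (bars), with the count in brackets and the 6.13% of all protein-coding genes as a dashed line. Gata, Hox and other homeobox genes stand at the top, and vomeronasal receptor, ribosomal protein, clustered protocadherin, CDK inhibitor and melanocyte genes have none.

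The Hox genes, which set position along the body axis, lay in 9 domains, and 34 of the 39 were wholly inside one. Hoxd1 overlapped none. The Hoxb domain, chr11:96226816-96360280 (133.5 kb), held 8 genes from Hoxb9 to Hoxb2, with 76.8% covered in replicate 1 and 97.5% in replicate 2 and a top fold of 13.0 and 8.64. Hoxb13 had its own domain of 58.1 kb that ended 5.57 kb before it, and Hoxb1 one of 12.9 kb that began 3.50 kb after it. The Hoxc domain (94.4 kb) met 9 Hox genes and the RNA gene Hotair, the Hoxd domain (86.4 kb) held 8 Hox genes, among them Hoxd10, whose promoter is printed above, and other domains included one of 58.5 kb from Hoxa3 to Hoxa11 and one of 23.6 kb at Hoxa13. The top fold in replicates 1 and 2 was 14.1 and 8.81 in the Hoxc domain, 15.4 and 9.75 in the Hoxd domain, 15.7 and 9.48 in the domain from Hoxa3 to Hoxa11, and 12.02 and 8.20 in the Hoxa13 domain. H3K27ac was scarce in these domains: the Hoxc domain, both of these Hoxa domains, and the Hoxb13 and Hoxb1 domains had no H3K27ac peak in either library, and shared H3K27ac covered 0.297% of the Hoxb domain and 0.860% of the Hoxd domain.

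Other patterning regulators had a high top fold in domains of different spans. Tbr1, a T-box gene of cortical neurons, lay in a 13.7 kb domain with a top fold of 18.6 and 12.4 in replicates 1 and 2. Otp, a hypothalamic homeobox gene, was in a 12.1 kb domain at 17.9 and 9.41, Barhl2 in a 24.5 kb domain at 17.4 and 8.47, and Foxd1, a gene of kidney stroma, in a 34.6 kb domain at 17.6 and 11.8. The heart regulators Nkx2-5 (18.5 kb) and Gata4 (46.1 kb) had 15.3 and 8.46, and 13.6 and 9.80. Foxa2, a regulator of endoderm and floor plate, had 13.6 and 8.54 in 19.7 kb, and Sox1, a neural progenitor gene, 12.9 and 7.09 in 30.0 kb. Otp, Barhl2, Nkx2-5, Gata4, Foxa2 and Sox1 had no H3K27ac peak in their domains in either library. Tbx5, a regulator of heart and forelimb, met domains of 51.3 and 42.1 kb, also with none. The Tbr1 and Foxd1 domains had H3K27ac peaks in each library that shared no base. In replicates 1 and 2 they covered 7.60% and 3.04% of the Tbr1 domain and 1.67% and 0.549% of the Foxd1 domain.

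Among signalling genes, 12 of 19 Wnt ligand genes overlapped a domain (63.2%), with Wnt3 and Wnt9b sharing one of 57.0 kb and Wnt6 and Wnt10a one of 40.6 kb. Of 10 hedgehog genes, the ligands Shh and Ihh and the target Gli1 did. Shh lay in a 17.5 kb domain with a top fold of 10.4 and 5.81 and no H3K27ac, and Gli1 in a 21.5 kb domain of which 12.04% was under shared H3K27ac. Among Fgf ligands 4 of 20 overlapped a domain (Fgf3, Fgf8, Fgf15 and Fgf17), and among Bmp and Gdf ligands 4 of 19 (Bmp4, Bmp8a, Gdf7 and Gdf10). These last counts depended on which bases were required: Fgf ligands numbered 8 with replicate 2 alone, 9 with replicate 1 alone and 1 with the stricter peaks, and Bmp and Gdf ligands 7, 8 and 2.

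Among genes of neuronal function and of matrix, most overlapping members were only partly inside a domain, as were most overlapping protein-coding genes in all (415 of 1267 wholly inside). Voltage-gated potassium channel genes overlapped domains at 14 of 38 (36.8%) with 1 wholly inside, collagen genes at 12 of 42 (28.6%) with none inside, glutamate and GABA receptor genes at 11 of 43 (25.6%) with 2 inside, and axon guidance genes at 13 of 68 (19.1%) with 3 inside. With replicate 1 alone these counts were 20, 22, 12 and 23, against 11.9% of all genes, and with the stricter peaks they were 7, 5, 8 and 7, against 3.55%. Epha8, an ephrin receptor gene, lay in a domain of 74.1 kb that was 90.1% covered. Col13a1 met 3 domains of 11.5 to 15.5 kb.

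Some long genes were covered by a run of domains. Overlap with at least 2 domains was seen in 183 genes and with at least 4 in 20. Rbfox3, which encodes the neuronal nuclear protein NeuN, met 9 domains that covered 286.9 of its 421.8 kb (68.0%). Csmd2 also met 9, with 23.8% of its length in domains, and Atp2b2, a calcium pump gene of neurons and hair cells, met 8, with 55.5%. Sez6l had the largest share among the 12 genes with the most domains, 140.6 of 159.4 kb (88.2%) in 5 domains. Genes that overlapped a domain had a median length of 18.98 kb, against 17.5 kb over all protein-coding genes.

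Several families overlapped domains less often than the 6.13% of all protein-coding genes, by count. Olfactory receptor genes, of which a mature neuron expresses one, overlapped domains at 7 of 1100 (0.636%), in 4 domains, and the counts were 18 with replicate 2 alone and 14 with replicate 1 alone. The domain at Olfr1411 and Olfr1412 was 11.2 kb with 31.0% covered by both libraries and a top fold of 5.05 and 3.896, and the domain at Olfr462 and Olfr463 was 19.5 kb with 26.3% covered. Vomeronasal receptor genes (0 of 352) and clustered protocadherin genes (0 of 57) had none. CDK inhibitor genes (0 of 7), which include Cdkn2a, a known Polycomb target, also had none, but 7 genes are too few to place below 6.13%. They had 3 of 7 with replicate 2 alone, against 9.1% of all genes, and 1 of 7 with replicate 1 alone, against 11.9%. Ribosomal protein genes had 0 of 79, and 4 with replicate 1 alone. Zfp zinc finger genes had 6 of 386 (1.55%). Keratin genes were near the share of all genes at 3 of 53 (5.66%), and 14 overlapped a domain with replicate 1 alone, against 11.9% of all genes, and 11 with replicate 2 alone. Polycomb genes had 2 of 19 (10.5%), both in 1 domain, and 1 of 19 with the stricter peaks, against 3.55% of all genes. Of them, Cbx2 and Cbx8 shared 1 domain of 28.8 kb, of which 32.2% was under shared H3K27ac, and the other 17 listed members had none, although 6 members overlapped a domain with replicate 1 alone.

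Genes of the olfactory lineage were partly inside domains. Among genes of globose basal cells and progenitors, 5 of 12 overlapped a domain, against 6.13% of all protein-coding genes. With the stricter peaks 4 of 12 did, against 3.55%. Neurog1, Insm1, Pax6 and Lhx2 overlapped a domain, while Kit, Neurod1, Lgr5, Sox2, Hes6, Gadd45g and Ezh2 did not. Kit, Neurod1, Lgr5 and Sox2 still had shared H3K27me3 in or within 1 kb of the gene, and Hes6 had none. Their top H3K27me3 fold in replicates 1 and 2 was 6.86 and 6.89 at Kit and 7.40 and 4.41 at Neurod1. It was 4.95 and 3.19 at Lgr5 and 6.40 and 4.92 at Sox2. Neurog1, a proneural factor, lay in a 15.6 kb domain with a top H3K27me3 fold of 7.12 and 4.24 and a top H3K27ac fold of 5.67 and 4.54. Insm1, which acts in progenitors that divide to make neurons, lay in a 12.01 kb domain with H3K27me3 at 10.8 and 5.83 and H3K27ac at 18.6 and 10.7. All 4 of these domains had H3K27ac in both libraries, and shared H3K27ac covered 39.8% of the Neurog1 domain, 55.1% of the Insm1 domain, 64.4% of the Pax6 domain and 69.8% of the Lhx2 domain.

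Genes of the other olfactory cell types overlapped domains at 2 of 10 for horizontal basal cells (Krt14 and Krt15), 2 of 9 for immature neurons (Gng8 and Crmp1), 1 of 13 for mature neurons (Kirrel2), 1 of 10 for sustentacular cells (Hes1) and 2 of 10 for microvillar and tuft cells (Chat and Pou2f3). With the stricter peaks these counts were, in the same order, 0, 0, 1, 0 and 1, against 3.55% of all genes. With replicate 1 alone they were 4, 3, 2, 2 and 2, against 11.9%. Cells from outside the lineage gave 2 of 8 mast cell genes (Tpsb2 and Gata2), 0 of 6 melanocyte genes, 1 of 12 leukocyte genes (Spi1) and 3 of 12 stromal and endothelial genes (Col1a1, Pdgfra and Pdgfrb). All these lists are read against 6.13% of all protein-coding genes, and they are too short to place a cell type above or below it. Chat, the enzyme that makes acetylcholine, had domains of 14.0 and 21.6 kb with no H3K27ac, and Tpsb2, a mast cell tryptase, one of 21.8 kb with none. Gata2, the other mast cell gene in a domain, had one of 29.4 kb of which 17.4% was under shared H3K27ac. The keratin domains of 10.2 and 10.8 kb, near the minimum span, had shared H3K27ac over 13.0% (Krt14) and 26.1% (Krt15 and Krt19).

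Noncoding domains, those touching no protein-coding gene, numbered 459 (27.05%). Without H3K27me3 replicate 1 there were 843, and without replicate 2 there were 921. Their median span was 15.2 kb, against 16.4 kb for domains with a protein-coding gene. Their median cover was 53.9% against 64.7%, and their median top fold 4.96 and 4.03 against 6.45 and 4.64 in replicates 1 and 2. No annotated gene of any kind lay in 255 of them, 179 held part of a long noncoding RNA gene, 18 a pseudogene and 12 a miRNA gene. Over all annotated long noncoding RNA genes, 727 of 12408 overlapped a domain (5.86%).

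The nearest protein-coding gene lay a median 38.7 kb from a noncoding domain (quartiles 14.7 and 95.8 kb), 36 noncoding domains were within 5 kb of one and 110 were over 100 kb away. The longest, chr8:120792728-120920810 (128.1 kb), began 36.0 kb from Irf8, a transcription factor gene of myeloid cells. It was covered over 83.96% in replicate 1 and 84.9% in replicate 2, and each H3K27ac library had small peaks in it, over 1.42% and 1.504% of its span, that shared no base. An 80.6 kb domain on chromosome 5, 60.0 kb from the lens crystallin gene Cryba4, was covered over 83.2% by both libraries and had no H3K27ac peak.

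Several miRNA genes lay in noncoding domains. Mir9-3 lay in a noncoding domain of 23.9 kb with a top fold of 14.5 and 8.39, and Mir9-1 in a 57.9 kb domain that also met Rhbg, with 14.2 and 7.25. The 3 genes of the brain miRNA miR-124 (Mir124a-1, Mir124a-2 and Mir124a-3) lay in noncoding domains of 15.9, 12.03 and 17.9 kb with a top fold of 9.58 and 6.65, 12.3 and 5.86, and 9.33 and 7.04. Mir1a-1 and Mir133a-2, miRNAs of muscle, shared a noncoding domain of 77.0 kb 15.0 kb from Gata5. The sensory miRNAs Mir96 and Mir183 shared a noncoding domain of 14.4 kb in which H3K27ac covered 51.8% of the span, with a top fold of 10.5 and 9.07. Mir182, of the same cluster, did not overlap a domain. None of the 5 genes of the epithelial miR-200 group and none of 10 let-7 genes did, against 5.99% of all miRNA genes. Groups this small cannot be placed below that share.

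H3K27ac, which the choice of domains did not use, was sparse in most of them and heavy in a few. Shared H3K27ac covered 4.25% of the domain span, against 12.5% of the span of shorter H3K27me3 regions and 2.66% of the chromosomes. By library it was 7.90% of domains against 18.8% of shorter regions in replicate 1, and 5.48% against 14.5% in replicate 2. At least 1 shared base was present in 619 domains (36.5%), against 21.7% of the shorter regions, which offer less length to overlap. Without H3K27ac replicate 2 it was 930 domains and without H3K27ac replicate 1 it was 830, and 647 domains (38.1%) had no H3K27ac peak in either library. Without H3K27me3 replicate 1 the count was 974 among the larger set of domains, and without H3K27me3 replicate 2 it was 1561, with 6.34% of the span covered.

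Of the shared H3K27ac in domains, 82.4% was on bases with shared H3K27me3, while H3K27me3 covered 63.5% of the span. Shared H3K27ac lay over 5.51% of the H3K27me3 bases and 2.05% of the gaps, and in shorter regions over 16.4% of the H3K27me3 bases. Among H3K27ac peaks in domains and those elsewhere, the median fold was 3.34 against 3.61 in replicate 1 and 3.22 against 3.43 in replicate 2, and a −log10 q of at least 5 was reached by 22.7% against 31.1% and by 9.25% against 18.8%.

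The H3K27ac share differed with position and span. It was 5.602% in domains with a whole gene, 5.55% in those at a gene end, 3.75% in those within a gene body and 1.48% in noncoding domains, and noncoding domains had the lowest share in each library, 3.48% in replicate 1 and 2.32% in replicate 2. It was 6.66% in domains of 10 to 15 kb, 5.21% in those of 15 to 20 kb, 3.48% in those of 20 to 50 kb and 1.4% in those of at least 50 kb. None of the 84 domains of at least 50 kb had more than 15.8% of its span under shared H3K27ac. The longest domains with no H3K27ac peak in either library were the Hoxc domain (94.4 kb), Wscd2 (87.3 kb), Cacna2d2 (86.3 kb), Tox2 and Jph2 (83.97 kb) and the noncoding domain near Cryba4 (80.6 kb).

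Across the edges of domains, H3K27ac was higher within than just outside. In the first kb inside, 9.60% of bases were under H3K27ac in replicate 1 and 6.80% in replicate 2, against 4.999% and 3.32% between 1 and 2 kb outside. Further out it was higher again, at 7.97% and 5.75% between 19 and 20 kb. H3K27me3 covered 81.4% and 86.3% of the first kb inside, and 31.9% and 32.8% between 19 and 20 kb outside, against 4.06% and 3.66% of the chromosomes. The high H3K27me3 cover of the first kb inside is made by the rule, since every edge is the end of a shared segment. The dip of H3K27me3 in the 3 kb outside an edge is also made by the rule, since any shared base there would have been joined. H3K27ac was lowest in the same 3 kb. Within domains, shared H3K27ac lay over 5.51% of the H3K27me3 bases and 2.05% of the gaps. The H3K27ac contrast across the edge is therefore not free of the rule, and its cause was not tested.

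**Figure D4:**
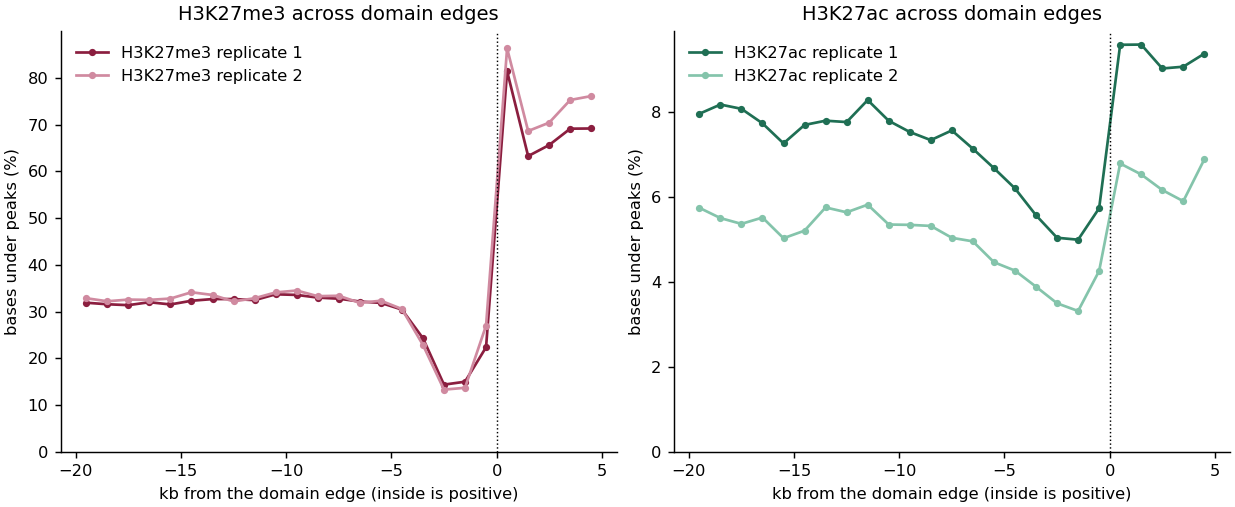
Percent of bases under peaks of each library in 1 kb bins, by distance in kb from the domain edge (inside positive, both edges of all 1697 domains pooled), for H3K27me3 (left) and H3K27ac (right). Both H3K27ac libraries are lowest 1 to 3 kb outside the edge, where the rule leaves no shared H3K27me3, and highest within the domains.

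Shared H3K27ac covered more than 25% of 109 domains and more than 50% of 38. The 109 were short, with a median of 13.3 kb and a maximum of 45.96 kb, and 9 of them were noncoding, but their H3K27me3 was not low: the median top fold was 6.32 and 4.60 in replicates 1 and 2, against 5.86 and 4.44 over all domains. The highest share was at Dmrta2 (13.3 kb), where H3K27me3 covered 100% of the span in both libraries and H3K27ac 99.1% and 98.0%. Smad7, an inhibitor of TGF-beta signalling, followed with 93.3%, then the Notch target Hes1 with 89.2%, the kidney regulator Six2 with 89.1%, the laminin gene Lama5 with 88.9%, and the forebrain and ear gene Otx1 with 88.1%. Grk2, a kinase of activated receptors, had 86.9% and Ccdc88c 85.2%.

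The Hes1 domain had a top H3K27me3 fold of 6.21 and 4.98 and a top H3K27ac fold of 9.37 and 8.83. Chosen after their values were seen, Ebf1, Ebf2 and Ebf3, which act in olfactory neuron differentiation, were also in domains of this kind. Shared H3K27ac covered 82.6% of the Ebf3 domain, 60.6% of the Ebf1 domain and 57.1% of the Ebf2 domain. Their top H3K27me3 fold was, in that order, 11.1 and 4.90, 5.87 and 4.50, and 7.18 and 4.60. The same holds for Six3 (79.5%), Fezf1 (69.8%) and Emx2 (42.7%), homeobox and zinc finger genes of the forebrain and olfactory placode, and for a noncoding domain in Sox2ot, the RNA gene around Sox2 (70.4%).

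Taking the outermost start of each gene, 675 lay in a domain and 240 of them (35.6%) had shared H3K27ac within 1 kb, against 61.7% of all 16457 starts and 61.7% of the 2282 starts in shorter H3K27me3 regions. The motif CG, its own reverse complement and so read alike on both strands, was present in 99.7% of the 300-base windows in domains and 95.0% of all such windows. A window in a domain held a median of 17 CG (quartiles 8 and 26), against 17 in shorter regions, 13 elsewhere and 14 over all starts. Within domains the median was 23 CG for the 240 starts with H3K27ac and 14 for the 435 without. These counts describe the letters in the windows, and no test was made across genes.

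Domains were unevenly spread. There were 1.34 domains per Mb on each of chromosomes 4 and 5 and 1.27 on chromosome 11, and 0.163 on chromosome 3 and 0.194 on chromosome 16. Chromosomes 4, 5 and 2 held 210, 204 and 199 domains. Of 2450 windows of 1 Mb, 1887 (77.0%) held no domain centre, and the 114 windows with at least 5 held 874 domains (51.5%). The median gap between neighbours on a chromosome was 98.3 kb, and 314 of 1678 gaps (18.7%) were shorter than 10 kb.

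**Figure D5:**
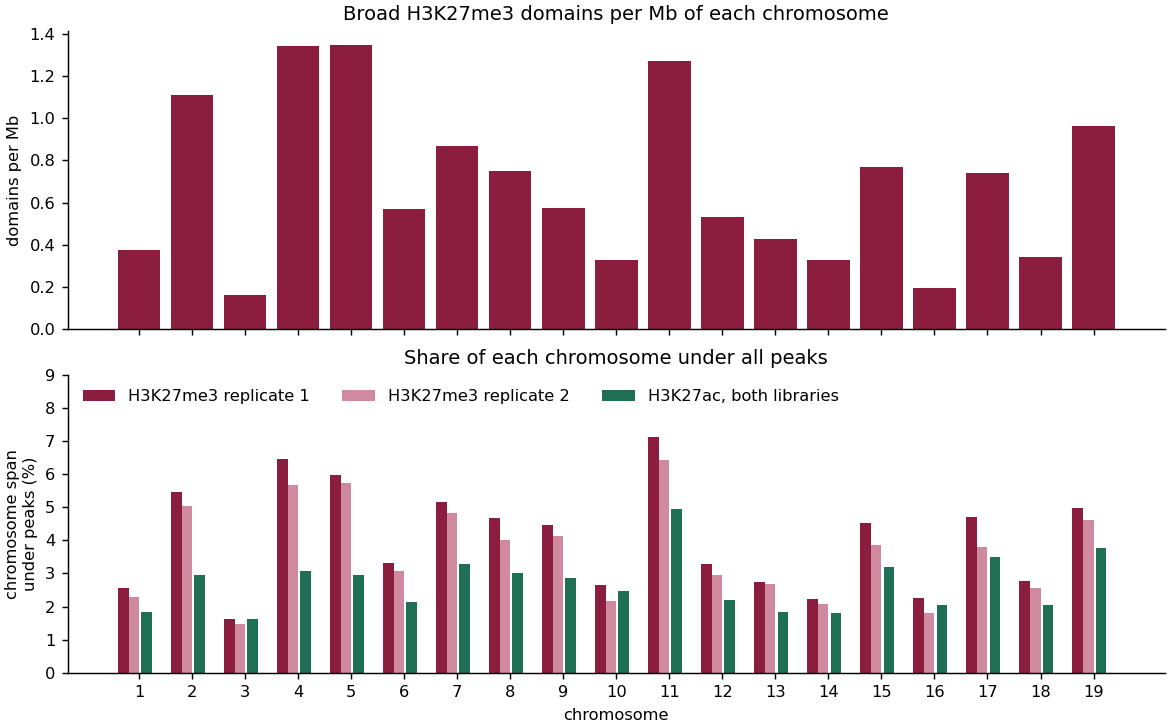
Upper, broad H3K27me3 domains per Mb of each chromosome; lower, percent of each chromosome under all peaks of H3K27me3 replicate 1, of H3K27me3 replicate 2, and under H3K27ac shared by both libraries. Chromosomes 4, 5 and 11 have the most domains per Mb and chromosomes 3 and 16 the fewest, and the share under all H3K27me3 peaks differs between chromosomes in both libraries.

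The densest window, from 112 to 113 Mb of chromosome 5, held 21 domains that spanned 604.4 kb, among them 5 in Sez6l, 6 in Myo18b and 8 noncoding ones. The window from 125 to 126 Mb of chromosome 4 held 18 domains that spanned 666.4 kb, 13 of them noncoding and 4 in Grik3. H3K27me3 peaks covered 52.5% and 58.8% of the first window and 57.0% and 64.6% of the second in replicates 1 and 2, against 4.06% and 3.66% of the chromosomes. The windows were chosen for their number of H3K27me3 domains, so a cover above that of the chromosomes follows from the choice. Shared H3K27ac covered 3.06% of the first window and 2.30% of the second, against 2.66% of the chromosomes.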

How the data were processed

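H3K27me3 and H3K27ac were each profiled by ChIP-seq in 2 libraries, and 1 peak list per library was used. Per the submitters' processing notes, fastp, Bowtie, Picard and MACS2 were used with GRCm38 (mm10). Their versions are not given in the sources used here. Per the labels' files, peaks were called separately in each library. For each broad peak the authors deposited a fold enrichment (a linear ratio), a −log10 p and a −log10 q, and a score. These are the authors' own values, and the smallest −log10 q was 1.01, 1.01, 1.00 and 1.01 in the lists of H3K27me3 replicates 1 and 2 and H3K27ac replicates 1 and 2, that is a q of about 0.1. The lists give no read totals, so depth is unknown and no interval that needs it is given.

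Domains were built from bases covered in both H3K27me3 libraries, joined over gaps of up to 3 kb and kept from 10 kb up, with interval code checked on simulated data. Shared means covered in both libraries of a mark, and overlap means at least 1 bp. Genes came from RefSeq (GRCm38.p6, 20665 protein-coding on chromosomes 1 to 19, without strand), and starts from its promoter table, which matched 16457 of them and holds no gene of chromosome 18. Other alternatives were each library alone, either library, gaps of 1 and 5 kb, spans of 5 and 20 kb and a −log10 q of at least 2. Named were the longest, best and least covered domains, those richest in H3K27ac, the longest without it, those next to the minimum span, and up to 4 genes of each list; miRNA families, the Ebf genes and forebrain homeobox genes named beside them, and genes with most domains were added after values were seen. The domain rule, gene lists and named groups were chosen with earlier results of these data known. Python 3.11.15, numpy 2.4.6 and pandas 2.3.3 were used. Chromosomes X and Y and the inputs were not analysed here, and some genes are not reported here.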

Additional observations from a re-analysis of the deposited data

How the results depend on the processing

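With only 1 H3K27me3 library (leaving out each in turn), the number of domains ranged from 2733 to 3356, their span from 61.4 to 73.4 Mb, genes wholly inside from 619 to 813, noncoding domains from 843 to 921, domains with H3K27ac from 974 to 1561, and the H3K27ac share of their span from 3.72% to 6.34%. With H3K27me3 in either library, these were 4614 domains, 112.4 Mb, 1143 genes, 1410 noncoding domains and 2101 with H3K27ac. With gaps of up to 1 kb they were 454 domains, 7.00 Mb, 119 genes, 86 noncoding domains and 148 with H3K27ac, and the median share covered was 95.0%. With gaps of up to 5 kb, the span was 60.8 Mb, the share covered 44.9%, genes inside 640 and domains with H3K27ac 977. A minimum span of 5 kb gave 3978 domains, 51.7 Mb, 1248 noncoding domains and 1352 with H3K27ac, and one of 20 kb gave 569 domains, 20.1 Mb, 242 genes inside, 125 noncoding domains and 230 with H3K27ac. At a −log10 q of at least 2 there were 845 domains, 17.3 Mb, 77.9% covered, 190 noncoding domains and 189 with H3K27ac. Counting genes that overlap a domain gave 1267 and genes with a start inside 703, against 415 wholly inside. Leaving out an H3K27ac library gave an H3K27ac share of 5.48% to 7.90% and 830 to 930 domains with it, and H3K27ac in either library gave 9.13% and 1050.

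The counts hold for the stated rule only. The cause was not tested beyond what each setting changes by its construction. No paired analysis was possible because the results come from no test, and libraries with the same number are not tied to each other by the labels, which give H3K27ac replicate 2 the input of H3K27me3 replicate 1. Depth is unknown, so a stretch with no peak lacked one at the authors' threshold only.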
